A study of Mus musculus with 12 samples.

Results

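The 36 genes described here encode aminoacyl-tRNA synthetases, 20 of the cytosolic set and 16 of the mitochondrial set. They were picked out of the tables by gene symbol, the mitochondrial enzymes being those whose symbols end in 2. The deposited tables held 53932 gene identifiers, and all 36 members were found among them in each of the 12 libraries. A filter on low values kept 16982 genes for testing, and all 36 members passed it.

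Aminoacyl-tRNA synthetases join each amino acid to its own tRNA, the step that sets the genetic code in every cell. Cytosolic and mitochondrial protein synthesis use separate tRNAs and mostly separate synthetases, all of them encoded in the nucleus, while Kars and Gars each make the lysine or glycine enzyme of both compartments. Uncharged cytosolic tRNA is sensed by the kinase GCN2, which leads to translation of the transcription factor ATF4, and ATF4 is known to induce many genes of amino acid supply, several cytosolic synthetase genes among them. In the brain, mutations in many synthetase genes cause leukodystrophy, neuropathy or encephalopathy.

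Total RNA was sequenced from cultured mouse cells of strain C57BL/6, with 3 libraries in each of 4 groups. MIM-Astrocytes, labelled cortex, E14.5, were astrocytes moved into MIM, a serum-free medium with FGF2 at 20 ng/mL and up to 6 metabolites (the amino acids cysteine, glycine, methionine and threonine, with putrescine and S-adenosylmethionine), and were collected by day 5. The labels do not give the combination or the day used for these libraries. Glioblastoma cells carry the tissue label cerebella and the age E18.5, and the labels do not say how the tumour cells arose or were grown. NSC were neurosphere cultures of E14.5 cortex in Neurobasal with B27 and both EGF and FGF2 at 20 ng/mL, used within their early passages. Astrocytes were labelled cortex, E14.5, and were kept in DMEM-F12 with 10% serum. For both astrocyte groups the protocol names GLAST-sorted postnatal cortex or differentiated neurospheres as sources without saying which was sequenced. Glioblastoma therefore differed from the other groups in brain region and age as well as in cell type, and MIM-Astrocytes differed from Astrocytes in serum and FGF2 as well as in the added metabolites. Whether the libraries of a group come from different animals or dishes is not stated, so p-values measure the spread between these libraries, which may be technical.

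Values are FPKM, fragment counts scaled by transcript length and library size, as the authors deposited them. Summed FPKM per library ran between 514728 and 979106, and 30.3 to 51.8% of each sum came from mitochondrially encoded genes and small RNAs. The number of reads per library is unknown. Sox2, a transcription factor gene of neural stem cells, was at 84.7 to 92.1 FPKM in MIM-Astrocytes, 130 to 143 in Glioblastoma, 94.3 to 112 in NSC and 54.5 to 68.5 in Astrocytes. Gfap, the astrocyte filament gene, was at 7.11 to 7.5 FPKM in MIM-Astrocytes, 2.95 to 3.55 in Glioblastoma, 0.851 to 1.16 in NSC and 241 to 273 in Astrocytes. The astrocyte list as a whole (Gfap, Aqp4, Aldh1l1, Slc1a3, S100b) summed to 848 to 1110 FPKM in MIM-Astrocytes, 394 to 417 in Glioblastoma, 617 to 708 in NSC and 1050 to 1210 in Astrocytes. The sums of both astrocyte groups thus lay above the others, but single genes differed in order. By group mean, Gfap and Aqp4 were highest in Astrocytes, Aldh1l1 in NSC, and Slc1a3 and S100b in MIM-Astrocytes. Oligodendrocyte lineage genes summed to 345 to 402 FPKM in MIM-Astrocytes, 202 to 211 in Glioblastoma and 283 to 333 in NSC. In Astrocytes they summed to 57.0 to 67.9 FPKM. The 4 neuronal genes found summed to 24.0 to 24.4 FPKM in Glioblastoma, mostly from Syt1 (mean 19.6 FPKM). Their sums were 0.773 to 0.86 FPKM in MIM-Astrocytes, 6.06 to 6.9 in NSC and 3.28 to 3.38 in Astrocytes. Microglial markers summed to at most 0.523 FPKM and endothelial markers to at most 1.92 FPKM in any library, with Cdh5 at 0 in every library. Of the 5 listed meningeal fibroblast genes, Ogn alone was high, with 3.66, 3.55 and 3.40 FPKM in MIM-Astrocytes, at most 0.255 FPKM in Glioblastoma and NSC, and 159, 182 and 151 FPKM in Astrocytes. In Astrocytes the other 4 were low, with means of 2.69 FPKM for Col1a1, 0.685 for Pdgfrb, 0.0584 for Dcn and 0 for Lum, and in the other groups each was at most 0.289 FPKM in any library. In bulk RNA, fewer cells of a type and less RNA per cell cannot be told apart.

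To show what the control regions of the members look like, promoters from the RefSeq table of build GRCm38.p6, 250 bases before to 50 bases after each annotated start, were searched on both strands for TGATGNAA, the element that ATF4 is known to bind with C/EBP partners. A promoter was found for 27 of the 36 members. The letters matched in 5 of 13 cytosolic members (38.5%: Aars, Gars, Iars, Tars and Yars) and in 0 of 14 mitochondrial members, against 4.51% of the 27025 genes in the table. Of 8 cytosolic members with a promoter that are often listed as ATF4 targets, 5 matched, and of the 5 other cytosolic members with a promoter, 0 did. The windows of 30 bases around the matches in Gars, Iars, Tars and Yars follow, written 5′ to 3′ on the strand of the gene with the matching letters in capitals.
Gars, chr6:55037960-55037989, plus strand: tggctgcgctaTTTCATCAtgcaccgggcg
Iars, chr13:49682126-49682155, plus strand: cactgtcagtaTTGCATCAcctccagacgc
Tars, chr15:11399655-11399684, minus strand: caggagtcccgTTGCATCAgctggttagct
Yars, chr4:129189895-129189924, plus strand: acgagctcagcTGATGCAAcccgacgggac

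The match lay on the gene's own strand in Yars and on the opposite strand in Gars, Iars and Tars, between 30 bases before the annotated start and 15 bases into the transcript. For Gars and Tars, whose amino acids glycine and threonine are among those named for MIM, the 250 bases before the start are shown in full.
Gars, chr6:55037751-55038000, plus strand: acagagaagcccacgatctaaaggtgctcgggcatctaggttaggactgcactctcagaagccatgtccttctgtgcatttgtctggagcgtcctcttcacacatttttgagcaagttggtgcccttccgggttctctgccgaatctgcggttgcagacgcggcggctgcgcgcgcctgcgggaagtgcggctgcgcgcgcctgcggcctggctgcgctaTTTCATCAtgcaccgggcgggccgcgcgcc
Tars, chr15:11399659-11399908, minus strand: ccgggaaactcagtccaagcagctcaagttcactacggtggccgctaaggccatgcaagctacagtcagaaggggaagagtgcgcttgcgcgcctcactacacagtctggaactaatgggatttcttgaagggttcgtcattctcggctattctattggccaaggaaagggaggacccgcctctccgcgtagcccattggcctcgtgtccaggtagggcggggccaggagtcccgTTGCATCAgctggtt
Promoters of Mars, Sars and Eprs, which were among the members with the largest differences, held no match in these windows. A match is a description of the sequence and not a measured binding site.

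Cytosolic synthetase mRNAs were abundant in all groups, and their levels were highest in Glioblastoma. Group means of the 20 cytosolic members ran from the level of Iars, the lowest, up to 61.2 FPKM (Eprs) in MIM-Astrocytes, between 24.0 FPKM (Hars) and 292 FPKM (Sars) in Glioblastoma, between 11.2 FPKM (Cars) and 40.8 FPKM (Sars) in NSC, and between 7.65 FPKM (Cars) and 55.8 FPKM (Qars) in Astrocytes. Glioblastoma had the highest mean of the 4 groups for 19 of 20 cytosolic members, or 95.0%, against 41.4% of all genes tested. Hars, the histidine enzyme, was the exception, with its highest mean in MIM-Astrocytes. The lowest mean was in Astrocytes for 12 cytosolic members and in NSC for 8. FPKM is scaled by transcript length, so levels of different genes can be set side by side.

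**Figure D1:**
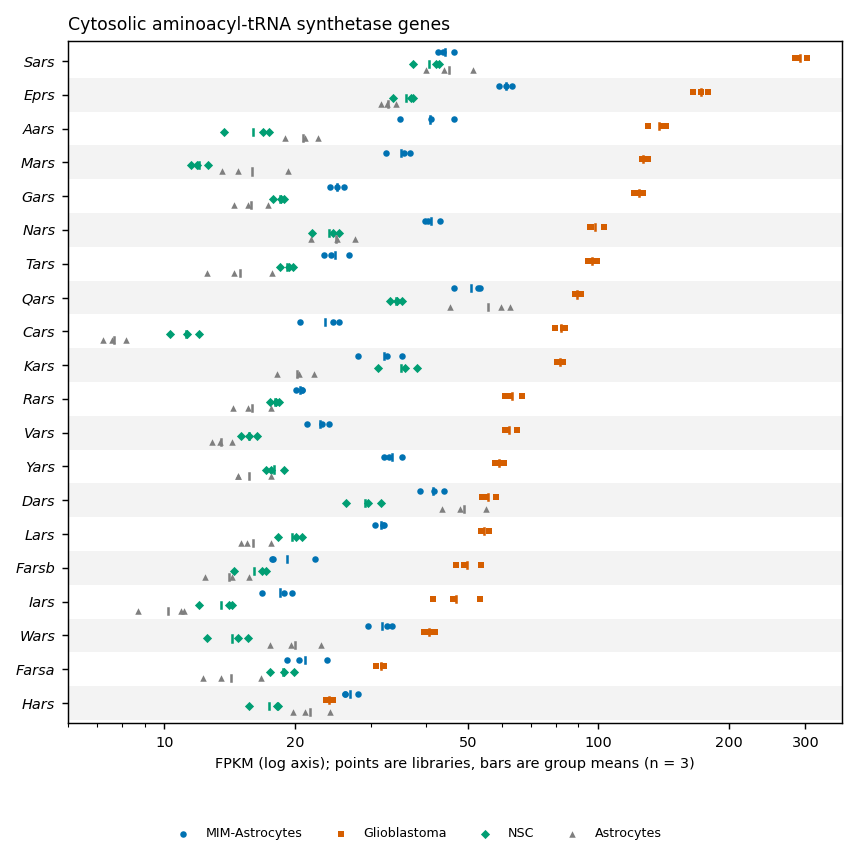
FPKM of the 20 cytosolic synthetase genes in each library on a log axis, with points for libraries and vertical bars for group means (n = 3). Glioblastoma libraries lie to the right of all others for most genes, up to a mean of 292 FPKM for Sars, while Hars and Dars show Glioblastoma points among or next to those of another group.

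Mitochondrial synthetase mRNAs were lower and did not share one order of groups. Leaving out Lars2, their group means ran between 2.33 FPKM (Ears2) and 22.3 FPKM (Fars2) in MIM-Astrocytes, between 3.00 FPKM (Pars2) and 28.9 FPKM (Vars2) in Glioblastoma, between 2.14 FPKM (Mars2) and 20.7 FPKM (Fars2) in NSC, and between 2.18 FPKM (Mars2) and 26.2 FPKM (Fars2) in Astrocytes. The highest mean was in MIM-Astrocytes for 2 of the 16, in Glioblastoma for 7, in NSC for 3 and in Astrocytes for 4. The 7 members highest in Glioblastoma are 43.8% of the mitochondrial set, close to the 41.4% of all genes tested.

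Lars2, the mitochondrial leucine enzyme, had the highest mean of the mitochondrial set in all 4 groups, and in 3 of those groups its libraries differed more than those of any other member did in any group. It measured 90.9, 19.8 and 19.7 FPKM in MIM-Astrocytes, 67.2, 24.7 and 41.8 FPKM in Glioblastoma, 70.3, 58.7 and 35.3 FPKM in NSC, and 43.0, 56.7 and 53.0 FPKM in Astrocytes. Libraries within MIM-Astrocytes and Glioblastoma spanned most of the range seen over all groups, and the groups overlapped. The coefficient of variation was 94.5% in MIM-Astrocytes, 48.0% in Glioblastoma, 32.6% in NSC and 13.9% in Astrocytes. Among genes with a group mean of at least 5 FPKM, 0.807% varied at least as much as Lars2 between the MIM-Astrocytes libraries, 3.01% between those of Glioblastoma, 4.28% between those of NSC and 21.4% between those of Astrocytes. The interval half-widths that the deposited tables give for Lars2 were 4.07 to 4.83% of its FPKM. The annotation places no other gene over Lars2. For the other 35 members the within-group coefficient of variation was 0.426 to 19.3%, with a median of 6.79%. Lars2 did not pass the test in any comparison, with a standard error of 0.56 on the log2 scale, and the reason for its spread was not tested.

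**Figure D2:**
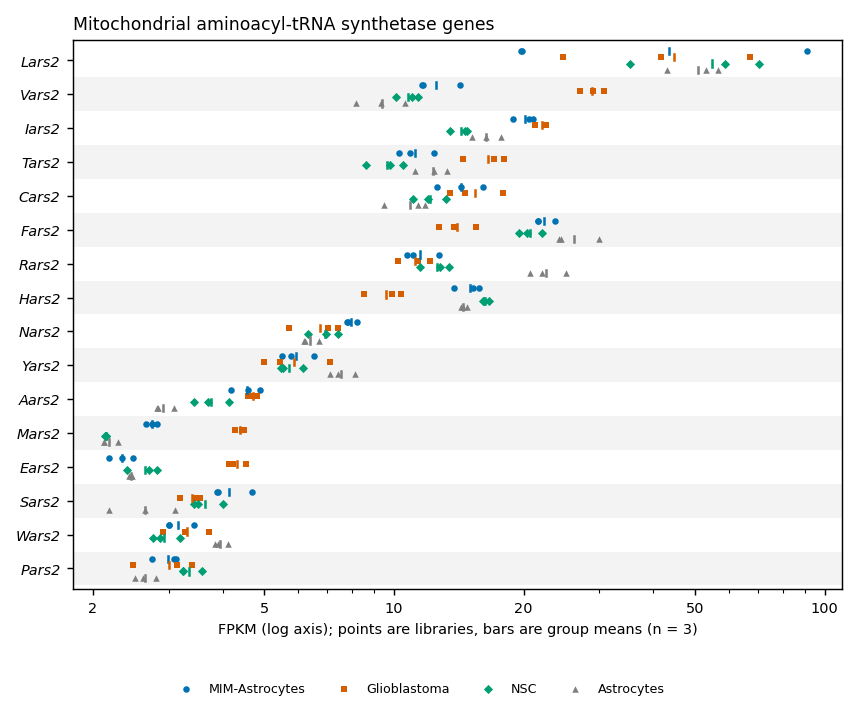
FPKM of the 16 mitochondrial synthetase genes in each library on a log axis, with points for libraries and vertical bars for group means (n = 3). Lars2 points are scattered within groups (19.7 to 90.9 FPKM in MIM-Astrocytes), Vars2 lies furthest right in Glioblastoma and Rars2 furthest right in Astrocytes.

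Summed over the 20 cytosolic members, FPKM was 624.7, 673.7 and 638.3 in MIM-Astrocytes, 1782.8, 1757.7 and 1829.5 in Glioblastoma, 440.6, 442.4 and 398.3 in NSC, and 443.1, 488.2 and 401.2 in Astrocytes. Glioblastoma libraries were all far above the rest, MIM-Astrocytes libraries were all above those of NSC and Astrocytes, and the last pair of groups overlapped. The sum over the 15 mitochondrial members other than Lars2 was 141 ± 8.13 FPKM in MIM-Astrocytes, 153 ± 8.32 in Glioblastoma, 128 ± 3.31 in NSC and 143 ± 7.76 in Astrocytes (SD, n = 3 each). The cytosolic sum divided by that mitochondrial sum was 4.59 ± 0.0866 in MIM-Astrocytes, 11.7 ± 0.458 in Glioblastoma, 3.35 ± 0.156 in NSC and 3.10 ± 0.135 in Astrocytes (SD, n = 3 each). With Lars2 included the ratio was 3.60 ± 0.72, 9.11 ± 0.918, 2.35 ± 0.121 and 2.29 ± 0.14 in the same order of groups. A ratio within a library does not depend on how libraries are scaled to each other. With or without Lars2, it separated Glioblastoma libraries from all others, and MIM-Astrocytes libraries from those of NSC and Astrocytes. The ratio shows unequal levels of the sets, not which of them differed.

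**Figure D3:**
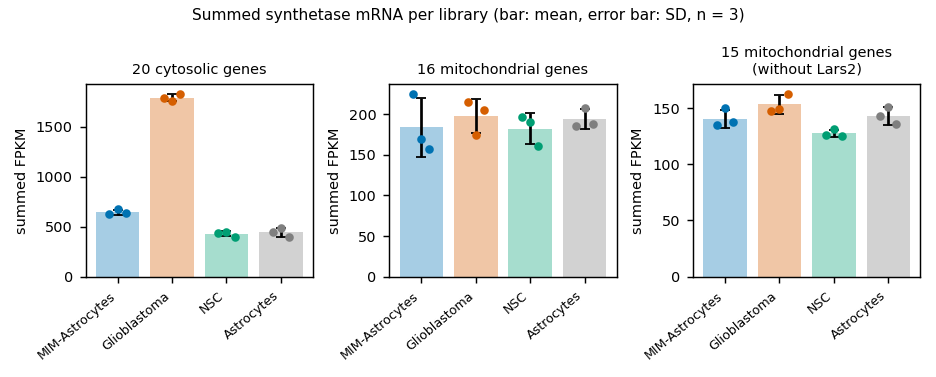
Summed FPKM of the 20 cytosolic genes, the 16 mitochondrial genes and the 15 mitochondrial genes without Lars2, by group, with bars for means, error bars for SD and points for the 3 libraries. Cytosolic sums reach 1790 FPKM in Glioblastoma and 646 FPKM in MIM-Astrocytes, while mitochondrial sums differ little between groups.

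Each comparison was fitted with limma on log2(FPKM + 1) over all 16982 genes, and a gene was called when its Benjamini-Hochberg adjusted p was below 0.05. Differences and their standard errors are on that log2 scale, which understates the change of genes with low values, while folds are ratios of mean FPKM. Several comparisons share libraries: Astrocytes serve as the control group in 3 of them and NSC in 2, so they are not independent of each other.

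MIM-Astrocytes against Astrocytes compares groups that differed in serum and FGF2 as well as in the metabolites. In it 17 of 20 cytosolic members rose and 0 fell. Of all genes tested, 34.8% were called higher and 26.6% lower (61.4% either way). By limma 1 cytosolic member, Dars, was lower at an unadjusted p below 0.05. The median cytosolic difference was 0.68, or 1.62-fold, against a median of 0.09 over all genes tested. The enzymes for cysteine, methionine, tyrosine and leucine rose the most.

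Cars (ENSMUSG00000010755.17, chr7:143557230-143600090, minus strand), which charges cysteine tRNA, had 20.5, 25.3 and 24.4 FPKM in MIM-Astrocytes, against 8.14, 7.22 and 7.58 FPKM in Astrocytes. Every MIM-Astrocytes library lay above every Astrocytes library, a 3.06-fold difference of means (log2 difference 1.49, SE 0.08, adjusted p = 7.93e-08). Mars (ENSMUSG00000040354.14, chr10:127296221-127311786, minus strand), the methionine enzyme, had 32.4, 36.9 and 35.7 FPKM in MIM-Astrocytes, against 14.8, 19.3 and 13.6 FPKM in Astrocytes. The groups did not overlap (log2 difference 1.10, SE 0.11, adjusted p = 7.33e-06). Yars, the tyrosine enzyme, had 35.3, 32.9 and 32.1 FPKM in MIM-Astrocytes, against 17.6, 14.8 and 14.8 FPKM in Astrocytes. It rose 2.13-fold with no overlap (1.05, SE 0.07, adjusted p = 4.69e-07). Lars, the cytosolic leucine enzyme, had 31.9, 32.0 and 30.5 FPKM in MIM-Astrocytes, against 15.5, 17.6 and 15 FPKM in Astrocytes, and rose by 0.93 (SE 0.07, adjusted p = 5.98e-07).

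The other 13 cytosolic members that rose had log2 differences between 0.29 (Hars) and 0.93 (Aars), among them Eprs for glutamate and proline (0.88), Iars for isoleucine (0.80) and Nars for asparagine (0.72). Dars, Qars and Sars did not pass the test. Dars, the aspartate enzyme, averaged 41.6 ± 2.60 FPKM in MIM-Astrocytes and 48.9 ± 5.88 FPKM in Astrocytes (SD, n = 3 each; -0.23, SE 0.09, adjusted p = 0.0581). Qars, for glutamine, averaged 50.9 ± 3.82 FPKM in MIM-Astrocytes and 55.8 ± 9.20 FPKM in Astrocytes (-0.12, adjusted p = 0.353). Sars, for serine, averaged 44.3 ± 1.98 FPKM in MIM-Astrocytes and 45.2 ± 5.71 FPKM in Astrocytes (-0.02, adjusted p = 0.851).

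How libraries are scaled moved these calls. After scaling each library to the same FPKM sum, the median of all genes shifted to -0.17, 13 cytosolic members were called higher with a median of 0.35, and Dars, Qars and Sars were called lower. Leaving out Astrocytes replicate 3 gave 2 cytosolic members called lower, and leaving out NSC replicate 3 gave 1.

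Among the 16 mitochondrial members, 7 rose, 3 fell and 6 did not pass, beside the 34.8% called higher and 26.6% called lower of all genes. Their median difference was 0.08 with a median of 0.09 over all genes, and with a common FPKM sum it was -0.20, with 2 called higher and 7 lower. Rars2, the mitochondrial arginine enzyme (ENSMUSG00000028292.14, chr4:34614957-34660167, plus strand), had 10.7, 11.1 and 12.7 FPKM in MIM-Astrocytes, against 25.1, 22.1 and 20.7 FPKM in Astrocytes. No MIM-Astrocytes library reached the lowest Astrocytes library, and Rars2 fell by 0.92 (SE 0.09, adjusted p = 1.16e-05). Wars2, for tryptophan, fell to 3.00, 3.43 and 3.00 FPKM in MIM-Astrocytes, against 3.85, 4.12 and 3.90 FPKM in Astrocytes (-0.26, SE 0.08, adjusted p = 0.0142). Yars2, for tyrosine, had 5.76, 6.52 and 5.50 FPKM in MIM-Astrocytes, against 7.40, 8.13 and 7.12 FPKM in Astrocytes (-0.30, SE 0.11, adjusted p = 0.0325).

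The largest mitochondrial rises were those of Sars2 and Aars2, for serine and alanine. Sars2 had 3.91, 4.67 and 3.88 FPKM in MIM-Astrocytes, against 2.64, 3.10 and 2.18 FPKM in Astrocytes (0.51, SE 0.10, adjusted p = 0.00117). Aars2 had 4.18, 4.89 and 4.57 FPKM in MIM-Astrocytes, against 2.83, 3.08 and 2.82 FPKM in Astrocytes (0.50, SE 0.07, adjusted p = 8.78e-05). Neither gene's groups overlapped, and these were the mitochondrial members still called higher with a common FPKM sum. Vars2, Cars2, Iars2, Nars2 and Mars2 rose by 0.23 to 0.38. Ears2, Fars2, Hars2, Lars2, Pars2 and Tars2 did not pass, with differences between -0.60 and 0.13.

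Other measures moved with this comparison. Cell division genes were higher in MIM-Astrocytes, with Mki67 at 51.3 to 52.9 FPKM in MIM-Astrocytes and 0.0982 to 0.128 FPKM in Astrocytes. All 4 cell division genes listed (Mki67, Top2a, Ccnb1, Cdk1) rose, with a median of 5.41, and so they did in MIM-Astrocytes against NSC (1.47), Glioblastoma against Astrocytes (4.77) and NSC against Astrocytes (4.10), while 3 of 4 rose in Glioblastoma against NSC (1.14). Among all genes tested, 34.8, 31.0, 47.0, 37.7 and 44.8% were called higher in these comparisons, in that order. Of the meningeal fibroblast list, Ogn had a lower mean in MIM-Astrocytes than in Astrocytes. So did Col1a1 (0.0938 against 2.69 FPKM) and Pdgfrb (0.0155 against 0.685 FPKM), while Dcn and Lum were at or near 0 in both groups. The part of cell division and of cells expressing these fibroblast genes in the synthetase differences was not tested.

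The comparison of Glioblastoma with NSC sets the tumour cells beside normal neural stem cells. In it 20 of 20 cytosolic members rose, where 44.8% of all genes tested were called higher and 25.1% lower (69.9% either way). None was lower by limma, at an adjusted or an unadjusted p (0 in each case). The median cytosolic difference was 1.74, or 3.5-fold, with a median of 0.19 over all genes. All 20 were called higher under each of the 4 other scalings, with medians between 1.41 and 1.53, where the median over all genes was between -0.04 and 0.03.

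Mars had 127, 130 and 126 FPKM in Glioblastoma, against 11.9, 12.6 and 11.5 FPKM in NSC. This 10.6-fold difference was the largest of the 36 members (3.31, SE 0.11, adjusted p = 1.6e-09). Aars (ENSMUSG00000031960.14, chr8:111033144-111057664, plus strand), the alanine enzyme, had 143, 130 and 140 FPKM in Glioblastoma, against 16.9, 17.4 and 13.7 FPKM in NSC. It rose 8.64-fold, with no overlap (3.04, SE 0.12, adjusted p = 5.55e-09). Sars (ENSMUSG00000068739.13, chr3:108424865-108445209, minus strand), the serine enzyme, had 284, 289 and 303 FPKM in Glioblastoma, against 42.2, 42.9 and 37.3 FPKM in NSC. Sars thus rose 7.16-fold here (2.81, SE 0.09, adjusted p = 1.46e-09), while it did not pass the test in MIM-Astrocytes against Astrocytes. Cars had 79.4, 83.7 and 83.0 FPKM in Glioblastoma, against 11.3, 12 and 10.3 FPKM in NSC, a 7.34-fold difference (2.77, SE 0.08, adjusted p = 8.71e-10).

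Behind these came Gars for glycine (2.68), Tars for threonine (2.27), Eprs (2.22) and Nars (2.00). The smallest cytosolic rises were those of Dars (0.92), Farsa, a subunit of the phenylalanine enzyme (0.72), and Hars (0.45). The subunits of that enzyme differed in size of change, with Farsb at 1.57. Hars had 23.9, 23.6 and 24.5 FPKM in Glioblastoma, against 18.2, 18.3 and 15.7 FPKM in NSC, so that its libraries still did not overlap.

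The mitochondrial members divided. Of 16, 7 rose, 2 fell and 7 did not pass the test, with 44.8% of all genes called higher and 25.1% lower. Their median difference was 0.07, below the 0.19 of all genes, and it was between -0.18 and -0.07 under the 4 other scalings, under which 4 to 7 members were called lower. Vars2 (ENSMUSG00000038838.15, chr17:35655634-35667592, minus strand), the mitochondrial valine enzyme, had 27, 29.0 and 30.8 FPKM in Glioblastoma, against 10.1, 11 and 11.4 FPKM in NSC. It rose 2.67-fold, the largest mitochondrial difference (1.34, SE 0.10, adjusted p = 9.22e-07). Mars2, for methionine, had 4.44, 4.49 and 4.27 FPKM in Glioblastoma, against 2.15, 2.13 and 2.14 FPKM in NSC (0.78, SE 0.04, adjusted p = 8.79e-08). Tars2, for threonine, had 17.1, 14.5 and 18 FPKM in Glioblastoma, against 9.81, 10.5 and 8.59 FPKM in NSC (0.72, SE 0.10, adjusted p = 0.000102). None of these overlapped. Iars2 (0.60), Ears2 (0.55), Cars2 (0.32) and Aars2 (0.27) also rose, though the calls of Cars2 and Aars2 did not hold under any of the 4 other scalings.

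The mitochondrial enzymes for histidine and phenylalanine fell. Hars2, for histidine, had 9.89, 8.5 and 10.4 FPKM in Glioblastoma, against 16.2, 16.1 and 16.6 FPKM in NSC, and fell by 0.71 (SE 0.07, adjusted p = 6.35e-06). Fars2, for phenylalanine, had 12.7, 15.5 and 13.8 FPKM in Glioblastoma, against 19.5, 20.4 and 22.1 FPKM in NSC, and fell by 0.53 (SE 0.09, adjusted p = 0.000509). In both, all Glioblastoma libraries were below all NSC libraries. Lars2, Nars2, Pars2, Rars2, Sars2, Wars2 and Yars2 did not pass, with differences between -0.35 and 0.13.

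**Figure D4:**
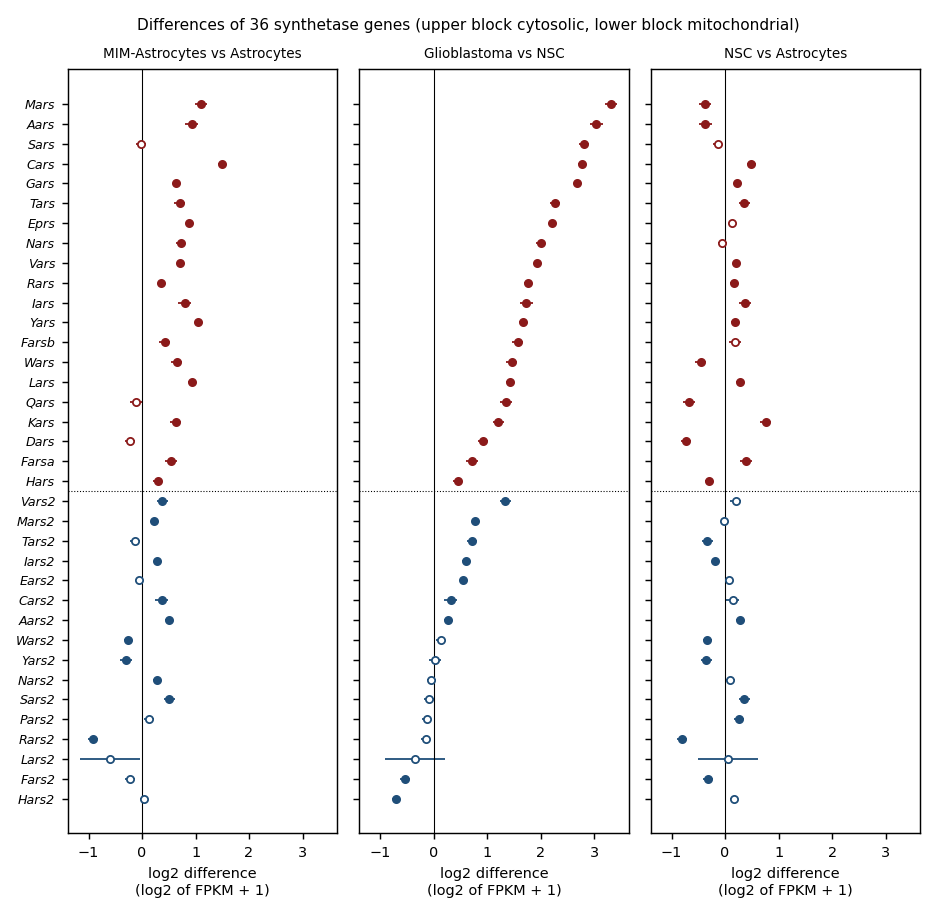
Log2 differences of the 36 members in 3 comparisons, cytosolic genes above the dotted line and mitochondrial genes below it, with points for limma estimates, bars for SE, and filled points where the adjusted p was below 0.05. In Glioblastoma against NSC all 20 cytosolic points lie to the right of 0, while NSC against Astrocytes has points on both sides.

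In NSC against Astrocytes, which compares the normal cell types, cytosolic members went both ways: 10 rose, 6 fell and 4 did not pass, where 37.7% of all genes tested were called higher and 33.4% lower (71.2% either way). The median cytosolic difference was 0.18, against 0.07 over all genes, and with a common FPKM sum it turned to -0.20, with 1 called higher (Kars) and 9 lower, while the median over all genes moved to -0.24. This comparison therefore gave no direction for the cytosolic set that held under all scalings.

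Kars, the lysine enzyme, had 38.3, 35.9 and 31.0 FPKM in NSC, against 20.4, 22.1 and 18.2 FPKM in Astrocytes, and rose by 0.76 (SE 0.10, adjusted p = 7.14e-05). Cars had 11.3, 12 and 10.3 FPKM in NSC, against 8.14, 7.22 and 7.58 FPKM in Astrocytes (0.49, SE 0.08, adjusted p = 0.000306), a call that was lost with a common FPKM sum. Farsa, Iars, Tars, Lars, Gars, Vars, Yars and Rars rose by 0.17 to 0.39, and for Yars and Rars the groups overlapped.

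Enzymes for aspartate and glutamine were the ones that fell the most. Dars had 31.5, 29.4 and 26.2 FPKM in NSC, against 47.9, 55.2 and 43.6 FPKM in Astrocytes (-0.73, SE 0.09, adjusted p = 4.51e-05). Qars had 34.3, 35.3 and 33.1 FPKM in NSC, against 59.6, 62.6 and 45.4 FPKM in Astrocytes (-0.68, SE 0.11, adjusted p = 0.000216). All NSC libraries were below all Astrocytes libraries for both genes. Wars, for tryptophan, had 14.8, 15.6 and 12.5 FPKM in NSC, against 19.6, 23.0 and 17.5 FPKM in Astrocytes (-0.46). Aars had 16.9, 17.4 and 13.7 FPKM in NSC, against 19.0, 22.6 and 21.1 FPKM in Astrocytes (-0.37). The same size of fall was seen in Mars, with 11.9, 12.6 and 11.5 FPKM in NSC, against 14.8, 19.3 and 13.6 FPKM in Astrocytes (-0.37). Hars had 18.2, 18.3 and 15.7 FPKM in NSC, against 21.1, 24.1 and 19.8 FPKM in Astrocytes (-0.30). Adjusted p for these 4 genes was between 0.00243 and 0.0158, and Eprs, Farsb, Nars and Sars did not pass.

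Of the mitochondrial members 3 rose, 6 fell and 7 did not pass in this comparison, with 37.7% of all genes called higher and 33.4% lower. Rars2 had 12.8, 13.4 and 11.5 FPKM in NSC, against 25.1, 22.1 and 20.7 FPKM in Astrocytes, and fell by 0.80 (SE 0.09, adjusted p = 2.46e-05). Yars2 had 5.46, 6.14 and 5.52 FPKM in NSC, against 7.40, 8.13 and 7.12 FPKM in Astrocytes (-0.35, adjusted p = 0.0148). Wars2, Tars2, Fars2 and Iars2 fell by 0.33, 0.33, 0.32 and 0.19. Leaving out Astrocytes replicate 2 reduced the mitochondrial members called lower to 3.

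Sars2 had 4.0, 3.51 and 3.44 FPKM in NSC, against 2.64, 3.10 and 2.18 FPKM in Astrocytes (0.36, adjusted p = 0.00764). Aars2 had 3.69, 4.13 and 3.43 FPKM in NSC, against 2.83, 3.08 and 2.82 FPKM in Astrocytes (0.28, adjusted p = 0.0038). Pars2, for proline, had 3.58, 3.23 and 3.24 FPKM in NSC, against 2.50, 2.62 and 2.80 FPKM in Astrocytes (0.26, adjusted p = 0.0198). These 3 rose with no overlap between groups, but with a common FPKM sum none was called and the differences of Aars2 and Pars2 turned to -0.03 and -0.04.

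Set against NSC instead of Astrocytes, MIM-Astrocytes again had more cytosolic synthetase mRNA: 16 of 20 cytosolic members rose, where 31.0% of all genes tested were called higher and 24.9% lower (55.9% either way). None was lower by limma, at an adjusted or an unadjusted p (0 in each case). The median cytosolic difference was 0.53, against 0.02 over all genes, and between 0.41 and 0.59 under the other scalings. Farsa, Farsb, Kars and Sars did not pass.

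Mars had 32.4, 36.9 and 35.7 FPKM in MIM-Astrocytes, against 11.9, 12.6 and 11.5 FPKM in NSC (1.47, SE 0.11, adjusted p = 1.49e-06). Aars had 34.9, 46.5 and 41.2 FPKM in MIM-Astrocytes, against 16.9, 17.4 and 13.7 FPKM in NSC (1.30, SE 0.12, adjusted p = 6.88e-06). Both exceeded 2-fold with no overlap. Wars had 29.4, 33.5 and 32.6 FPKM in MIM-Astrocytes, against 14.8, 15.6 and 12.5 FPKM in NSC (1.11, SE 0.10, adjusted p = 8.96e-06). Cars had 20.5, 25.3 and 24.4 FPKM in MIM-Astrocytes, against 11.3, 12 and 10.3 FPKM in NSC (1.00, SE 0.08, adjusted p = 3.32e-06).

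Mitochondrial members differed little between these groups, with 3 higher, 0 lower and 13 not past the test, beside 31.0% higher and 24.9% lower among all genes. At an unadjusted p, 0 were lower as well, although 1 was called lower when NSC replicate 3 or MIM-Astrocytes replicate 1 was left out. Iars2, for isoleucine, had 18.9, 21 and 20.6 FPKM in MIM-Astrocytes, against 14.8, 14.6 and 13.5 FPKM in NSC (0.47, SE 0.06, adjusted p = 0.000145). Mars2 had 2.74, 2.81 and 2.66 FPKM in MIM-Astrocytes, against 2.15, 2.13 and 2.14 FPKM in NSC (0.25, SE 0.04, adjusted p = 0.000713). Aars2 had 4.18, 4.89 and 4.57 FPKM in MIM-Astrocytes, against 3.69, 4.13 and 3.43 FPKM in NSC (0.23, SE 0.07, adjusted p = 0.0157). In all 3 the MIM-Astrocytes libraries were the higher ones, with no overlap.

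In Glioblastoma against Astrocytes, 18 of 20 cytosolic members rose, where 47.0% of all genes tested were called higher and 31.3% lower (78.3% either way), and the median difference was 1.96 with a median of 0.23 over all genes. None was lower by limma, at an adjusted or an unadjusted p (0 in each case). The cytosolic median was between 1.36 and 1.66 under the other scalings, under each of which Hars was called lower. Cars had 79.4, 83.7 and 83.0 FPKM in Glioblastoma, against 8.14, 7.22 and 7.58 FPKM in Astrocytes (3.27, SE 0.08, adjusted p = 9.19e-11). Mars differed 8.02-fold (2.94, SE 0.11), with 127, 130 and 126 FPKM in Glioblastoma, against 14.8, 19.3 and 13.6 FPKM in Astrocytes. Gars had 124, 121 and 127 FPKM in Glioblastoma, against 15.6, 17.3 and 14.5 FPKM in Astrocytes (2.9, SE 0.06, adjusted p = 3.22e-11). These genes sat 7.85- to 10.7-fold higher in Glioblastoma. Sars had 284, 289 and 303 FPKM in Glioblastoma, against 44.2, 51.3 and 40.0 FPKM in Astrocytes (2.67, SE 0.09, adjusted p = 8.09e-10). Dars and Hars did not pass, at 0.19 and 0.15, and their libraries overlapped.

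Mitochondrial members again went both ways, with 8 higher, 5 lower and 3 not past the test, beside the 47.0% higher and 31.3% lower of all genes. With a common FPKM sum, which moved the median of all genes to -0.26, 2 were higher and 7 lower. Vars2 had 27, 29.0 and 30.8 FPKM in Glioblastoma, against 8.18, 9.34 and 10.6 FPKM in Astrocytes (1.53, SE 0.10, adjusted p = 1.82e-07). Rars2 had 11.4, 10.2 and 12.1 FPKM in Glioblastoma, against 25.1, 22.1 and 20.7 FPKM in Astrocytes (-0.95, SE 0.09, adjusted p = 4.6e-06). Fars2 had 12.7, 15.5 and 13.8 FPKM in Glioblastoma, against 24.4, 29.9 and 24.2 FPKM in Astrocytes (-0.85, SE 0.09, adjusted p = 1.14e-05). Vars2 was thus higher and Rars2 and Fars2 lower in every Glioblastoma library. Hars2 had 9.89, 8.5 and 10.4 FPKM in Glioblastoma, against 14.3, 14.8 and 14.5 FPKM in Astrocytes (-0.56). Smaller falls were called for Wars2, with 2.91, 3.27 and 3.72 FPKM in Glioblastoma, against 3.85, 4.12 and 3.90 FPKM in Astrocytes (-0.21), and for Yars2, with 4.99, 5.44 and 7.12 FPKM in Glioblastoma, against 7.40, 8.13 and 7.12 FPKM in Astrocytes (-0.33). The count of 5 lower became 3 when Glioblastoma replicate 1, Glioblastoma replicate 2 or Astrocytes replicate 2 was left out, or when the 6 libraries were fitted alone.

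Rars2 was lower in every other group than in Astrocytes. Its means were 11.5 ± 1.08 FPKM in MIM-Astrocytes, 11.2 ± 0.945 FPKM in Glioblastoma, 12.6 ± 0.984 FPKM in NSC and 22.6 ± 2.25 FPKM in Astrocytes (SD, n = 3 each). The first 3 of these groups overlapped, and the pairs among them that were compared did not pass the test. Vars2 was higher in Glioblastoma than in NSC and Astrocytes, with means of 12.5 ± 1.52 FPKM in MIM-Astrocytes, 28.9 ± 1.92 FPKM in Glioblastoma, 10.8 ± 0.654 FPKM in NSC and 9.38 ± 1.22 FPKM in Astrocytes.

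For 14 amino acids both a cytosolic and a mitochondrial gene were members, taking Farsa for phenylalanine. The cytosolic gene had the higher mean FPKM in 11 of the 14 pairs in MIM-Astrocytes, 14 in Glioblastoma, 10 in NSC and 9 in Astrocytes. The median ratio of cytosolic to mitochondrial FPKM was 2.02 in MIM-Astrocytes, 5.74 in Glioblastoma, 1.72 in NSC and 1.46 in Astrocytes. Sars was at 10.7 times Sars2 in MIM-Astrocytes, 86.1 times in Glioblastoma, 11.2 times in NSC and 17.1 times in Astrocytes. This was the widest gap of the 14 pairs in all groups except MIM-Astrocytes, where Mars was at 12.8 times Mars2. At the other end, Lars was at 0.723 times Lars2 in MIM-Astrocytes, 1.22 times in Glioblastoma, 0.36 times in NSC and 0.315 times in Astrocytes, values that carry the wide spread of Lars2.

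Within pairs, the log2 difference of the cytosolic gene exceeded that of its mitochondrial partner for 13 of 14 amino acids in MIM-Astrocytes against Astrocytes, by a median of 0.80. Serine was the exception, with Sars at -0.02 and Sars2 at 0.51. The same held for 14 of 14 in Glioblastoma against NSC, by a median of 1.71 and by between 0.59 (valine) and 2.89 (serine). In the valine pair Vars (1.93) and Vars2 (1.34) both rose. In NSC against Astrocytes it did so for 7 of 14, with a median of 0.12. These margins are on log2(FPKM + 1), which shrinks changes of low mitochondrial genes more than those of their cytosolic partners. Mars2, for example, was 2.05-fold higher in Glioblastoma than in NSC but entered as 0.78. The sizes of the margins therefore depend in part on that scale.

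The cytosolic members were also divided by what is known of them. Of the 12 often listed as induced by ATF4, 11 rose in MIM-Astrocytes against Astrocytes, all but Sars, with a median of 0.84, and 6 of the 8 other cytosolic members rose, with a median of 0.39. Of all genes tested, 34.8% were called higher in that comparison. With a common FPKM sum the listed enzymes kept 11 called higher and had 1 lower (median 0.52), whereas of the others 2 were higher and 2 lower (median 0.07). Under each remaining scaling the others had 6 higher and 2 lower, with medians of 0.28 to 0.31. The listed enzymes had 11 higher there, with medians of 0.73 to 0.74. In Glioblastoma against NSC all 12 and all 8 rose, with medians of 2.25 and 1.28, where 44.8% of all genes were called higher. Within the listed enzymes the Glioblastoma differences ran between 1.42 (Lars) and 3.31 (Mars), and within the others between 0.45 (Hars) and 1.93 (Vars), so the ranges overlapped. In NSC against Astrocytes the medians were 0.16 and 0.18.

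Of the 20 cytosolic enzymes 8 belong to the multi-synthetase complex, a large assembly held together by the scaffold proteins Aimp1, Aimp2 and Eef1e1. Of these, 6 rose in MIM-Astrocytes against Astrocytes with a median of 0.72, and of the 12 outside the complex 11 rose with a median of 0.68. The share called higher among all genes was 34.8%. Against NSC, the Glioblastoma medians were 1.58 inside and 1.96 outside it. The complex held both the largest Glioblastoma difference, Mars, and one of the smallest, Dars.

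The amino acids among the metabolites named for MIM are charged by Mars, Tars, Gars and Cars, and in mitochondria by Mars2, Tars2 and Cars2. All 4 cytosolic enzymes rose in MIM-Astrocytes against Astrocytes, by 1.10, 0.70, 0.64 and 1.49, and kept that call under every scaling. Among all genes 34.8% were called higher in that comparison, and 44.8% in Glioblastoma against NSC. Their median of 0.90 stands beside 0.68 for the 20 cytosolic members. The same 4 rose by more in Glioblastoma against NSC, whose medium the labels do not give for the tumour cells, with a median of 2.73. Of the mitochondrial enzymes Mars2 and Cars2 rose, by 0.23 and 0.37, and Tars2 did not pass (-0.13), and with a common FPKM sum neither rise was called.

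Other genes linked to the amino acid response and ATF4 were followed as a list of 18. Uncharged tRNA and ATF4 activity themselves were not measured. In MIM-Astrocytes against Astrocytes 14 rose and 4 fell, beside 34.8% higher and 26.6% lower among all genes, with a median of 0.88. Atf4 itself had 46.7, 53.6 and 51.2 FPKM in MIM-Astrocytes, against 22.7, 30.2 and 20.8 FPKM in Astrocytes (1.03, SE 0.12, adjusted p = 3.65e-05). Asns, which makes asparagine, had 37.6, 37.9 and 36.1 FPKM in MIM-Astrocytes, against 15.6, 15.8 and 13.5 FPKM in Astrocytes (1.26). No library overlapped in either gene. Slc7a11, the cystine importer, rose 5.06-fold (1.87) and Slc7a1, a transporter of basic amino acids, 4.42-fold (1.49). The 4 that fell were Atf3 (-2.10), Slc3a2 (-1.0), Ddit3 (-0.69) and Cebpg (-0.41). Atf3 and Ddit3 encode transcription factors of the stress response, and Slc3a2 the heavy chain that partners Slc7a11.

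All 18 rose in Glioblastoma against NSC, where 44.8% of all genes did, with a median of 2.49. Asns had 310, 313 and 338 FPKM in Glioblastoma, against 12.5, 9.74 and 9.81 FPKM in NSC (4.79, SE 0.09, adjusted p = 5.04e-11). Trib3, a pseudokinase induced by ATF4 and Ddit3, had 32.0, 33.6 and 35.3 FPKM in Glioblastoma, against 0.0784, 0.0603 and 0.0745 FPKM in NSC (5.01, SE 0.05). Chac1, which degrades glutathione, and Nupr1, a stress-induced nuclear protein, differed by 5.18 and 5.95. Ddit3 had 107, 106 and 113 FPKM in Glioblastoma, against 12.3, 11.5 and 10.8 FPKM in NSC (3.14). In NSC against Astrocytes 6 of the 18 rose and 9 fell, beside 37.7% higher and 33.4% lower among all genes, with a median of -0.29.

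The list of 14 partners of aminoacylation holds genes that scaffold, edit after, modify or stand in for synthetases. In MIM-Astrocytes against Astrocytes 5 rose and 3 fell, near the 34.8% higher and 26.6% lower of all genes, with a median of 0.08 that turned to between -0.22 and -0.01 under 3 of the 4 other scalings. The scaffold gene Aimp1 rose by 0.56 and Eef1e1 by 0.41, while Aimp2 averaged 7.49 ± 0.832 FPKM in MIM-Astrocytes and 7.39 ± 0.661 FPKM in Astrocytes (SD, n = 3 each) and did not pass (0.01, adjusted p = 0.907). Aarsd1, which removes wrongly attached amino acids from alanine tRNA, rose by 0.91, and the 3 that fell were Sepsecs (-0.53), of the selenocysteine tRNA pathway, Gatb (-0.51) and Dtd1 (-0.35), which clears D-amino acids from tRNA. In Glioblastoma against NSC 12 of 14 rose, where 44.8% of all genes did, with a median of 0.83 that was 0.57 to 0.63 under the other scalings, and the 3 scaffold genes rose by 1.30 to 1.39. Aarsd1 had 42.0, 42.2 and 42.3 FPKM in Glioblastoma, against 14.6, 13.4 and 12.2 FPKM in NSC (1.59, SE 0.07). The exception that fell was Gatb, a subunit of the mitochondrial enzyme that makes glutamine tRNA from glutamate tRNA, with 4.04, 4.72 and 4.05 FPKM in Glioblastoma, against 7.24, 5.69 and 5.86 FPKM in NSC (-0.46, SE 0.10, adjusted p = 0.00222). Its companion subunits Qrsl1 and Gatc rose by 0.42 and 0.18. For Gatc the groups overlapped, and its rise was below the median of 0.19 over all genes tested. Under each of the 4 other scalings 10 of the 14 partners were called higher.

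**Figure D5:**
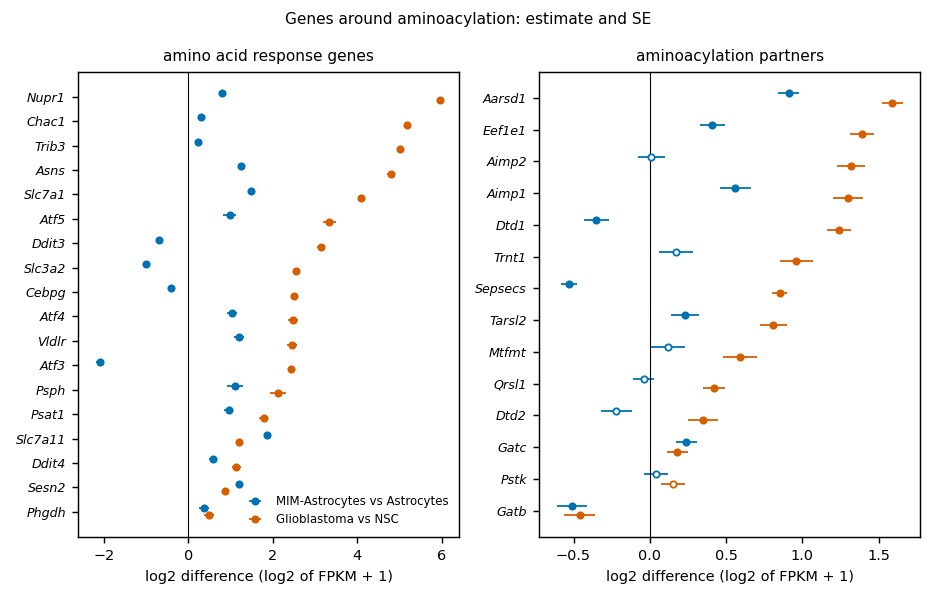
Log2 differences of 18 amino acid response genes and 14 aminoacylation partners in MIM-Astrocytes against Astrocytes and in Glioblastoma against NSC, with points for limma estimates, bars for SE and filled points where the adjusted p was below 0.05. All 18 response genes lie right of 0 in Glioblastoma against NSC, and Atf3, Slc3a2, Ddit3 and Cebpg lie left of 0 in MIM-Astrocytes against Astrocytes.

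Some members share sequence with other genes, and the sources used here do not say whether counting used strand. In the GENCODE M21 annotation 19 members overlapped another gene, 13 shared exon bases with one and 10 shared them with a protein-coding gene. Mars shared 68 of its 3423 exon bases with Ddit3 on the opposite strand, itself one of the genes higher in Glioblastoma. Hars and Hars2 lie head to head and shared 195 exon bases, Iars2 shared 2034 of 8885 with Rab3gap2, and Fars2 shared 501 of 5747 with Nrn1, all on opposite strands. Aars shared 1326 of 9282 exon bases with Exosc6 on its own strand. Exosc6 had at most 4.9e-27 FPKM in any library, so almost nothing was assigned to it. How reads in shared bases were divided is otherwise not given, so the levels of these members carry that uncertainty.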

How the data were processed

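RNA of 12 libraries, 3 in each of 4 groups taken from the sample labels, was analysed from gene tables. The authors deposited 1 table of FPKM per library, made with Cufflinks on build GRCm38 per the submitters' processing notes; aligner, read counts and strandedness are not given in the sources used here. From these tables the 53932 gene identifiers were joined. Genes with at least 1 FPKM in at least 3 libraries and a status of OK in all 12 were kept (16982), put on the log2(FPKM + 1) scale and modelled by limma (version 3.58.1, R version 4.3.3) with a separate mean for each group, a mean-variance trend and 8 residual degrees of freedom. The 5 comparisons were adjusted by the Benjamini-Hochberg method over all genes kept. The fit was tested on simulated data. Depth is unknown, so no counting intervals were computed; the intervals that the authors deposited with each FPKM had half-widths of 1.76 to 29.6% of the value over the members, with a median of 7.7%. Members and lists were chosen with earlier results of these data known.

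In each comparison, library values are given for the 4 cytosolic and 3 mitochondrial called members with the largest absolute differences and for called members against their class's majority; from each further list up to 3 called genes each way are named. Other genes named, such as Atf4 and the Glioblastoma values of Asns and Ddit3, were chosen after their values were seen. Alternatives were a pseudocount of 0.1, dropping the filter, requiring a mean of 5 FPKM, 4 scalings (median of ratios, quantile, a common FPKM sum, and that sum without mitochondrially encoded genes and small RNAs), the 6 libraries of each comparison alone, a replicate block and leaving out each library. The ratio without Lars2 was added after seeing the data. Promoters came from a RefSeq table of GRCm38.p6 and overlaps from GENCODE M21. Besides those printed, a marker gene and some promoter match windows are not reported here.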

Additional observations from a re-analysis of the deposited data

How the results depend on the processing

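Counts of members called are given here where they moved by over 1.5 times. Of cytosolic members lower, MIM-Astrocytes against Astrocytes gave 2 under median of ratios, 3 under each of quantile, common sum and common sum without mitochondrial genes and small RNAs, 1 with the replicate block, and 0 to 2 when leaving out 1 library; MIM-Astrocytes against NSC gave 1 under quantile and 1 under the sum without mitochondrial genes; Glioblastoma against Astrocytes gave 1, 1, 2 and 1 under the 4 scalings. NSC against Astrocytes had 1 cytosolic member higher under the common sum. Of mitochondrial members higher, MIM-Astrocytes against Astrocytes gave 4 at a mean of at least 5 FPKM and 2 under the common sum, NSC against Astrocytes 0 and 0, MIM-Astrocytes against NSC 1 and 5, and Glioblastoma against Astrocytes 4 and 2, with 5 under each of the other scalings; Glioblastoma against NSC gave 4 at that mean. Fewer members pass that filter. Of mitochondrial members lower, the 4 scalings in that order gave 6, 5, 7 and 5 in MIM-Astrocytes against Astrocytes and 6, 5, 4 and 7 in Glioblastoma against NSC, while MIM-Astrocytes against NSC gave 1, 3 and 1 under median of ratios, quantile and the sum without mitochondrial genes, and 0 to 1 when leaving out 1 library. Glioblastoma against Astrocytes gave 3 with its 6 libraries alone and 3 to 5 when leaving out 1 library, and NSC against Astrocytes 3 to 6. Aars2 and Pars2 turned to -0.03 and -0.04 in NSC against Astrocytes under the common sum. Without Lars2 the cytosolic to mitochondrial ratio was 4.59 in MIM-Astrocytes, 11.7 in Glioblastoma, 3.35 in NSC and 3.10 in Astrocytes. The cause of these shifts was not tested. The other 376 values of this kind stayed within 1.5 times. Of single named members, 969 kept their call and 27 lost it. Over the 5 comparisons together, same-numbered libraries showed no pairing (correlations of deviations -0.058 to 0.097, other pairs -0.0828 to 0.0736). In NSC against Astrocytes, however, same-numbered correlations were all positive (0.0436 to 0.097) and the others all negative (-0.0705 to -0.00324). Whether those libraries are paired is not known. The replicate block changed no other count by over 1.5 times. Unknown depth limits statements on the low mitochondrial members.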

Other observations

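Cytosolic elongation factors, which bring charged tRNA to the ribosome and move it on, did not run alongside the synthetases in MIM-Astrocytes against NSC. By limma 4 of 5 fell and 0 rose, where 24.9% of all genes tested were called lower and 31.0% higher. Their median of -0.74 stayed between -0.83 and -0.60 under the other scalings, while 16 of 20 cytosolic synthetases rose. Eef1a1, the carrier of charged tRNA, had 2080, 2700 and 2720 FPKM in MIM-Astrocytes, against 5250, 5320 and 4490 FPKM in NSC (-1.01, SE 0.17, adjusted p = 0.000485). Eef2, the translocation factor, had 309, 357 and 344 FPKM in MIM-Astrocytes, against 696, 706 and 601 FPKM in NSC (-0.98, SE 0.10, adjusted p = 1.62e-05). Every MIM-Astrocytes library was below every NSC library for both genes. In Glioblastoma against NSC all 5 rose, where 44.8% of all genes tested were called higher. Their median was 0.79, and 0.39 to 0.57 under the other scalings. Against Astrocytes, 4 of 5 rose and 0 fell in MIM-Astrocytes, with a median of 0.67 beside 0.68 for the cytosolic synthetases. The other scalings gave 3 or 4 higher there, with medians of 0.34 to 0.57, and quantile normalization gave 1 lower. All 5 rose in NSC against Astrocytes, with a median of 1.28, and 0.88 to 1.26 under the other scalings. Of all genes tested, 34.8% and 37.7% were called higher in these comparisons.

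Of 9 mitochondrial translation factors, 5 rose in MIM-Astrocytes against NSC and 5 rose and 1 fell in Glioblastoma against NSC, where 31.0% and 44.8% of all genes were called higher. The medians were 0.21 and 0.46, and under the other scalings 0.14 to 0.27 and 0.13 to 0.25. Tsfm, the mitochondrial elongation factor Ts, had 18, 21 and 19.4 FPKM in MIM-Astrocytes and 23.6, 27.2 and 25.5 FPKM in Glioblastoma, against 8.32, 10.2 and 8.63 FPKM in NSC (1.03 and 1.4). Gfm1, the mitochondrial elongation factor G, had 30.8, 32.4 and 29.8 FPKM in MIM-Astrocytes, against 16.7, 15.5 and 14 FPKM in NSC (0.97). Neither gene's libraries overlapped with those of NSC.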
